A study of Mus musculus with 4 samples.

Results

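The nuclear-encoded respiratory chain genes were described in intestinal CD4+ T cells. They were selected by symbol alone (subunit names of the *Nduf*, *Sdh*, *Uqcr*, *Cox* and *Atp5* families, pseudogene names left out), with no measured value, and 77 of the 13265 genes in the deposited table met the rule. By complex, 35 belonged to complex I, 4 to complex II, 8 to complex III, 14 to complex IV (*Ndufa4* counted here, where its protein resides) and 15 to complex V. The remaining gene, *Atp5s*, is named like a subunit of the ATP synthase but encodes a coupling factor that is not one.

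The respiratory chain sits in the inner mitochondrial membrane. Complexes I and II pass electrons from NADH and succinate to ubiquinone, complex III passes them on to cytochrome c and complex IV to oxygen, and complex V uses the proton gradient built on the way to make ATP. Most subunits are encoded in the nucleus, translated in the cytosol and imported, and a small catalytic core is encoded by mitochondrial DNA, so both genomes must supply each complex except complex II, which is entirely nuclear. T cells raise respiration and glycolysis when they are activated and divide.

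Droplet-based 3′ scRNA-seq had been performed on YFP+CD4+ T cells of the small intestine, sorted from mice aged 7 to 8 months. All mice carried *Il17a-cre* and a *Rosa26-stop-yfp* reporter, so that YFP marks cells that have expressed *Il17a*, whether or not they still do. TGFβR-KO mice also carried floxed *Tgfbr2*, TGFβR-CA mice a constitutively active *Tgfbr1* behind a floxed stop, and TGFβR-WT mice were littermates without these floxed alleles. Each library was a pool of mice, and there were 2 of TGFβR-WT and 1 of each other condition, while TGFβR-KO and TGFβR-CA were run in different batches, each with TGFβR-WT cells. The table held 2975 cells labelled TGFβR-KO, 1098 labelled TGFβR-CA and, by the suffix of their names, 709 (the large set) and 298 (the small set) TGFβR-WT cells. Which TGFβR-WT set shared a batch with which other condition is not given in the sources used here. Genotype and library cannot be told apart with 1 pool per genotype, so no test between conditions was made, and each value was set against both TGFβR-WT sets.

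Values are levels, defined as corrected UMIs of a gene per 10000 corrected UMIs of all genes, summed over the cells of a group. With 3′ UMIs a molecule counts once whatever its length, so levels of different genes were compared with no division by length. The median cell held 3440 to 3984.5 corrected UMIs and 1470 to 1675 detected genes over the 4 sets, and 32 cells had a barcode that occurs in more than 1 set, mostly in TGFβR-KO and the large TGFβR-WT set, which shared 14. The 10 T cell markers summed to 106 to 131 per 10000, *Cd3e* and *Cd4* among them, whereas 13 epithelial markers summed to 0.184 to 0.329 and 6 γδ and CD8 T cell markers to 0.0479 to 0.206. The authors had already removed γδ T cells and contaminating epithelial cells, so low sums of their markers are no independent evidence of purity. B and plasma cell markers reached 1.22 to 2.67, mostly *Ighm* and *Jchain*, and myeloid markers 1.89 to 2.21, mostly *Cst3*. *Tgfbr2* had a level of 1.48 in TGFβR-KO, 1.78 in TGFβR-CA, 1.72 in the large and 1.76 in the small TGFβR-WT set, and 3′ UMIs do not show whether a floxed part upstream is lost. *Tgfbr1* stood at 0.219, 0.792, 0.367 and 2.79 in the same order, so that TGFβR-CA lay above the large and below the small TGFβR-WT set. Conditions are therefore named by the labels of the cells.

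The summed level of the respiratory chain genes was 225 per 10000 in TGFβR-KO, 206 in TGFβR-CA, 225 in the large TGFβR-WT set and 193 in the small one. TGFβR-KO was thus level with the large TGFβR-WT set, and TGFβR-CA lay between the 2 TGFβR-WT sets. TGFβR-KO had 1.0 times the summed level of the large and 1.17 times that of the small set, and TGFβR-CA 0.915 and 1.06 times. The median TGFβR-KO cell had a UMI from 41 members, with 28 to 55 between the 5th and 95th percentiles. The SD of the summed level over single cells was 52.3 in TGFβR-KO, 49.9 in TGFβR-CA, 59.2 in the large and 42.3 in the small TGFβR-WT set, which exceeded the differences between the sets and includes the sampling of UMIs.

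Complexes I, IV and V supplied similar amounts of mRNA and complex II the least. The summed level of complex I was 65.3 in TGFβR-KO, 62.9 in TGFβR-CA, 68.0 in the large and 61.6 in the small TGFβR-WT set. Complex V stood at 63.6, 61.2, 63.5 and 59.6 in the same order, and complex II at 3.77, 3.34, 4.0 and 4.25. For complex II, which links the chain to the citric acid cycle, both TGFβR-KO and TGFβR-CA were below both TGFβR-WT sets. Complex IV stood at 70.1, 60.7, 68.0 and 52.7, and complex III at 22.7, 17.8, 21.4 and 15.2. In these complexes TGFβR-KO was above both sets and TGFβR-CA between them.

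**Figure D1:**
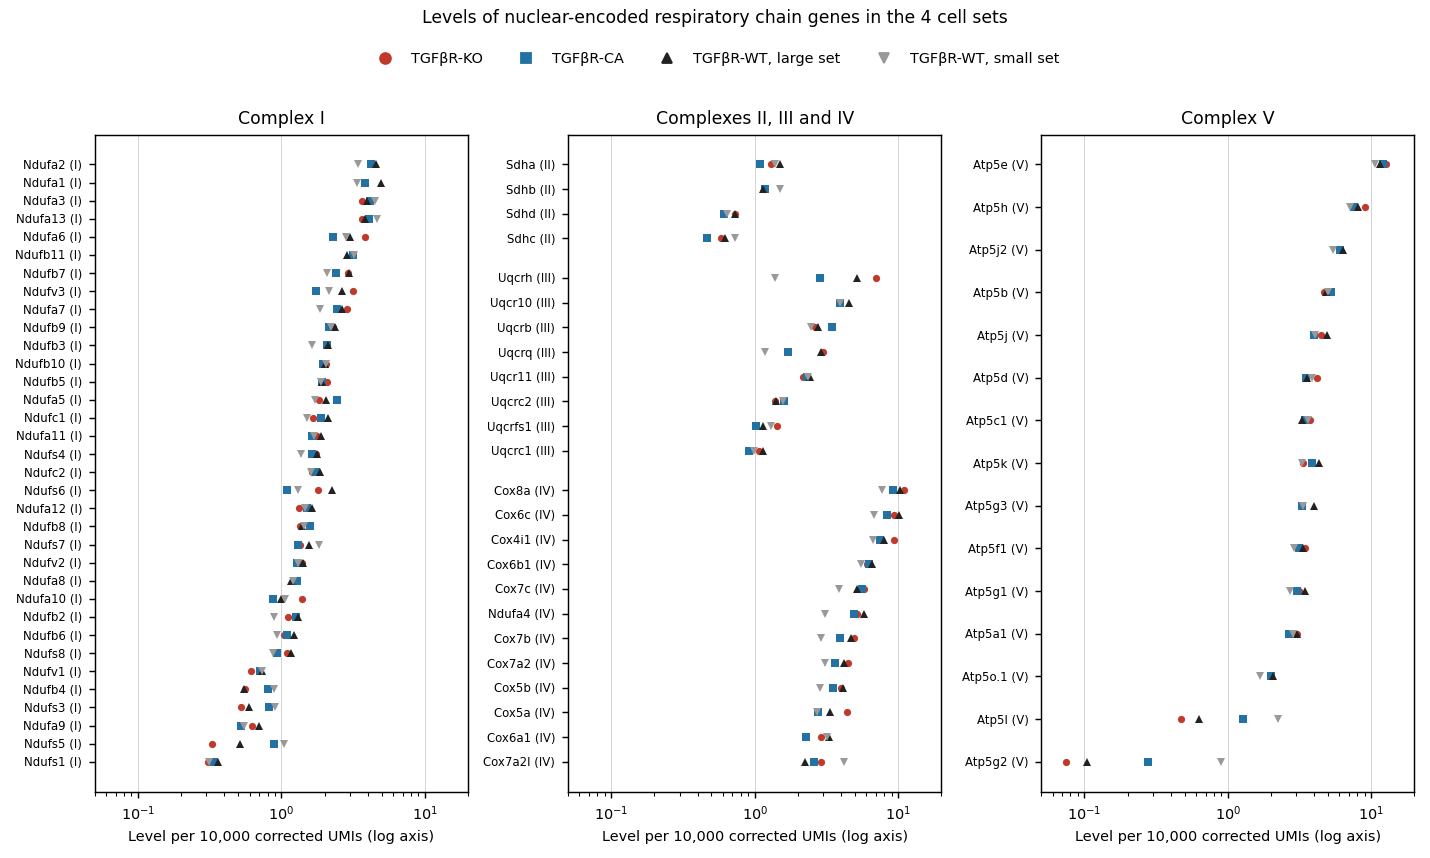
Levels of 73 genes with at least 200 corrected UMIs, per 10000 corrected UMIs on a log axis, grouped by complex, with 1 point for each of the 4 cell sets (no error can be given for single pools). Most genes have their 4 points close together, while *Uqcrh*, *Uqcrq*, *Atp5l*, *Atp5g2* and *Ndufs5* are spread out.

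In complex I, the NADH dehydrogenase, the small accessory subunits *Ndufa2*, *Ndufa1* and *Ndufa3* were the most abundant mRNAs. *Ndufa2* had a level of 4.34 in TGFβR-KO, 4.24 in TGFβR-CA, 4.57 in the large and 3.44 in the small TGFβR-WT set. *Ndufa1* stood at 3.74, 3.80, 4.94 and 3.39 and *Ndufa3* at 3.66, 4.11, 3.97 and 4.47. The small set was thus the lowest for *Ndufa2* and *Ndufa1* and the highest for *Ndufa3*.

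All 4 complex II genes were detected at low levels. *Sdha*, the flavoprotein that oxidizes succinate, stood at 1.31 in TGFβR-KO, 1.08 in TGFβR-CA, 1.5 in the large and 1.38 in the small TGFβR-WT set. *Sdhb*, which holds the iron-sulfur clusters, stood at 1.15, 1.17, 1.14 and 1.51. The membrane anchors *Sdhc* (0.579, 0.465, 0.618 and 0.725) and *Sdhd* (0.734, 0.616, 0.734 and 0.643) were the least abundant, and TGFβR-CA had the lowest value for *Sdha*, *Sdhc* and *Sdhd*.

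In complex III, the level of *Uqcrh*, the hinge subunit that lies next to cytochrome c1, was 7.02 in TGFβR-KO, 2.86 in TGFβR-CA, 5.13 in the large and 1.38 in the small TGFβR-WT set. *Uqcr10* stood at 3.92, 3.92, 4.52 and 3.91 and *Uqcrb* at 2.64, 3.44, 2.76 and 2.48. Between the 2 TGFβR-WT sets *Uqcrh* thus differed far more than *Uqcr10* and *Uqcrb*. Without *Uqcrh* and *Uqcrq*, left out after their values were seen, the summed level of complex III was 12.6 in TGFβR-KO, 13.2 in TGFβR-CA, 13.4 in the large and 12.6 in the small set, with TGFβR-KO and TGFβR-CA within the range of TGFβR-WT.

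Complex IV, the cytochrome c oxidase, included 3 of the highest mRNAs. *Cox8a* had a level of 10.9 in TGFβR-KO, 9.23 in TGFβR-CA, 10.3 in the large and 7.68 in the small TGFβR-WT set, and 96.4% of all 5080 cells had a UMI from it (95% Clopper-Pearson interval 95.8 to 96.9%, counting error only). *Cox6c* stood at 9.33, 8.39, 10.1 and 6.78 and *Cox4i1*, the regulatory subunit that binds ATP, at 9.31, 7.48, 8.0 and 6.72. The small TGFβR-WT set was the lowest for each of them. *Ndufa4*, first assigned to complex I and now placed in complex IV, stood at 5.13, 4.90, 5.75 and 3.1.

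The isoforms that dominate outside muscle prevailed. *Cox6b1* had levels of 6.06, 6.32, 6.6 and 5.54 in TGFβR-KO, TGFβR-CA, the large and the small TGFβR-WT set, whereas its testis counterpart *Cox6b2* had 6 UMIs in all cells. *Cox7a2* stood at 4.48, 3.62, 4.22 and 3.1, against 0.0270, 0.0342, 0.0519 and 0.0412 for the heart and muscle isoform *Cox7a1*. *Cox7a2l*, a relative that takes part in joining complexes III and IV into supercomplexes, stood at 2.88, 2.59, 2.24 and 4.18 and was the only one of these isoforms that was highest in the small TGFβR-WT set. *Cox6a1* stood at 2.91, 2.29, 3.32 and 3.21, lowest in TGFβR-CA.

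In complex V, the ATP synthase, *Atp5e* was the most abundant of all members, at 12.7 in TGFβR-KO, 12.0 in TGFβR-CA, 11.4 in the large and 10.6 in the small TGFβR-WT set, and 98.0% of cells had a UMI from it (97.6 to 98.4%). *Atp5h*, a subunit of the peripheral stalk, stood at 9.02, 7.55, 8.11 and 7.16 and *Atp5j2* at 5.95, 6.02, 6.35 and 5.46. The 3 genes for the same c-ring protein differed in level. *Atp5g1* (3.14, 3.03, 3.47 and 2.70) and *Atp5g3* (3.30, 3.30, 4.02 and 3.32) were close to each other, and *Atp5g2* stood at 0.0749, 0.278, 0.104 and 0.898.

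Few respiratory chain genes differed from both TGFβR-WT sets in TGFβR-KO or TGFβR-CA. A member was counted as past the fold when its level differed at least 1.5 times, in the same direction, from both TGFβR-WT sets. Only genes with 200 or more corrected UMIs over all cells were used. This left 74 of the 77 members and 7490 genes in all, and *Cox6b2*, *Cox7a1* and *Atp5s* were below it. At least 1000 UMIs were reached by 72 members but only by 2962 of all genes. Ratios of genes with fewer UMIs vary more by sampling. The shares below are thus not matched for abundance, and its part in them was not tested. In TGFβR-KO, 0 members were higher against 2.94% of all genes, and 1 was lower against 5.43% of all genes. In TGFβR-CA, 0 were higher against 1.26% and 0 lower against 2.75% of all genes. Against a single TGFβR-WT set, the members' shares were also below those of all genes, except for the members higher in TGFβR-CA than in the large set. In TGFβR-KO 0 members were higher and 1 lower than in the large set, where 4.35% and 9.51% of all genes were, and 6 were higher and 5 lower than in the small set, where 10.1% and 19.1% were. In TGFβR-CA 3 were higher and 4 lower than in the large set, where 3.85% and 9.08% were, and 2 were higher and 4 lower than in the small set, where 6.96% and 12.2% were.

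The 1 member past the fold was *Ndufs5*, a small accessory subunit of complex I. Its level was 0.326 in TGFβR-KO, 0.885 in TGFβR-CA, 0.511 in the large and 1.04 in the small TGFβR-WT set, so TGFβR-KO was at 0.638 and 0.314 times the TGFβR-WT levels. TGFβR-KO was the lowest set, but one TGFβR-WT set was 2.03 times the other, a wider gap than the one from the large set to TGFβR-KO.

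Single members of TGFβR-KO moved by less. By the nearer TGFβR-WT set, the largest ratios after *Uqcrh* (1.37) were those of *Cox5a* (1.31), *Ndufa10* (1.30), *Ndufa6* and *Ndufv3* (1.19). *Cox5a*, a matrix-facing subunit of complex IV, had a level of 4.40 in TGFβR-KO against 2.76 in TGFβR-CA and 3.36 and 2.73 in the TGFβR-WT sets. *Ndufa10* stood at 1.38 in TGFβR-KO against 0.869, 0.997 and 1.06, and *Ndufa6* at 3.79 against 2.27, 3.02 and 2.83. For these 3 genes TGFβR-KO was the highest over all cells and the 2 TGFβR-WT sets were closer to each other than to TGFβR-KO. In clusters with at least 20 cells in every set, *Cox5a* of TGFβR-KO was 0.989 to 1.13 times the large set. Over the small set it was 1.10 to 1.52 times. For *Ndufa6* the ranges were 1.05 to 1.18 and 1.04 to 1.45 times. Against the large set alone, the 2 genes were 1.71 and 1.24 times in migratory and 0.981 and 0.761 times in cycling cells. At the low end after *Ndufs5* were *Atp5g2* (0.722), *Atp5l* (0.747), *Ndufv1* (0.846) and *Ndufs3* (0.873).

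In TGFβR-CA the largest ratios by the nearer TGFβR-WT set were those of *Uqcrb* (3.45 in TGFβR-CA against 2.76 and 2.48), *Ndufa5* (1.21), *Ndufb8* (1.10), *Cox7c* (1.08) and *Ndufa8* (1.07). The lowest were those of *Cox6a1* (0.713), *Sdhc* (0.753), *Sdha* (0.787), *Ndufa6* (0.803) and *Ndufv3* (0.812). *Ndufa6* and *Ndufv3*, both accessory to complex I, were thus above both TGFβR-WT sets in TGFβR-KO and below both in TGFβR-CA. For *Ndufv3* the levels were 3.14 in TGFβR-KO, 1.75 in TGFβR-CA, 2.63 in the large and 2.15 in the small TGFβR-WT set.

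The direction of the group depended on the TGFβR-WT set. The median log2 ratio of the 74 members (0.1 per 10000 added to each level) was −0.053 for TGFβR-KO over the large set, beside −0.121 for all genes tested, and 0.121 over the small set, beside −0.122. For TGFβR-CA it was −0.108 over the large set, beside −0.075, and 0.027 over the small set, beside −0.081. Between the TGFβR-WT sets themselves the median log2 ratio of the small over the large was −0.173 for the members and near 0 for all genes (−0.0003). In TGFβR-KO, 23 members lay above both TGFβR-WT sets, 18 below both and 33 between them, or 31.1% and 24.3% above and below, where all genes had 18.3% and 50.4%. In TGFβR-CA, 9 lay above, 23 below and 42 between, or 12.2% and 31.1%, where all genes had 19.4% and 40.8%.

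**Figure D2:**
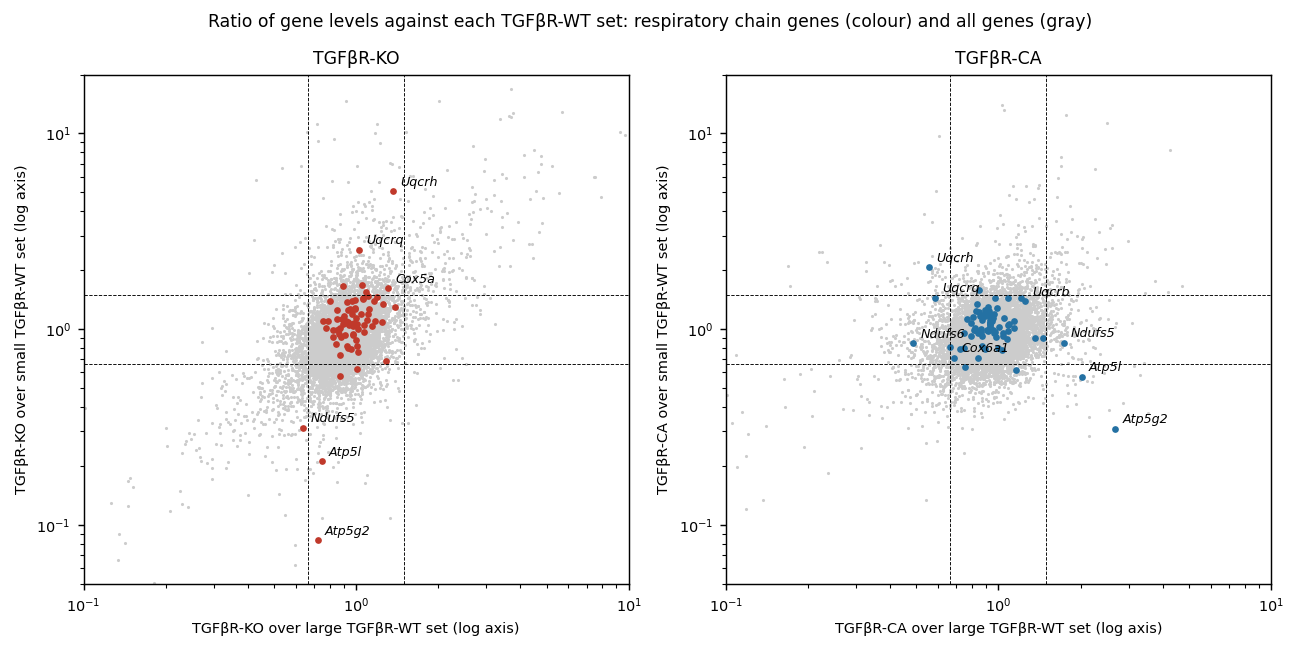
Ratio of each gene's level in TGFβR-KO (left) and TGFβR-CA (right) to the large (x axis) and small (y axis) TGFβR-WT set, both log axes, with respiratory chain genes in color, all other genes tested in gray and dashed lines at 1.5-fold in either direction. The members cluster near 1, with 1 member (*Ndufs5*) in the lower left corner for TGFβR-KO and 0 in the corners past the fold in the same direction for TGFβR-CA.

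A group of 5 members parted the sets in another way, with TGFβR-KO and the large TGFβR-WT set on one side and TGFβR-CA and the small set on the other. *Uqcrh* and *Uqcrq* were at least 1.5-fold higher in TGFβR-KO and the large set than in each of the other 2, as were 2.4% of all genes. *Uqcrq*, which encodes a small subunit at the ubiquinone end of complex III, had a level of 2.99 in TGFβR-KO, 1.71 in TGFβR-CA, 2.91 in the large and 1.18 in the small set. *Atp5l*, *Atp5g2* and *Ndufs5* were at least 1.5-fold higher in TGFβR-CA and the small set, as were 1.3% of all genes. *Atp5l*, the g subunit of the ATP synthase, stood at 0.474, 1.28, 0.634 and 2.24.

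The splits were also seen within clusters. *Uqcrh* in TGFβR-KO was 1.15 to 1.47 times the large TGFβR-WT set and 4.14 to 5.53 times the small set in the 4 clusters with at least 20 cells in every set (GC-TFH, TR-TFH, activated and pre-tumorigenic). In TR-TFH cells alone, for instance, *Uqcrh* stood at 6.49 in TGFβR-KO, 2.72 in TGFβR-CA, 4.88 in the large and 1.31 in the small set. *Atp5l* in the same cells stood at 0.285, 1.18, 0.659 and 2.09. The split was thus present within this cluster too. For *Uqcrh*, TGFβR-CA was 0.558 times the large set both there and over all cells. For *Atp5l* it was 1.79 times there and 2.02 times over all cells. The 2 TGFβR-WT sets, labelled with the same genotype, lay on opposite sides of the split. Library and batch cannot be told apart in it, and its cause was not tested.

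Some members end in sequence that other genes share, which bears on how reads at the 3′ end are assigned. Of the 77 members, 24 had at least 1 word of 50 bases in the last 300 bases of their transcripts that also occurs in another annotated gene (GENCODE, GRCm38). In 5 of them at least 50% of the words were shared, namely *Atp5g2* (100%), *Cox7c* (99.2%), *Atp5l* (70.1%), *Ndufs5* (54.6%) and *Ndufs3* (53%). All 3 members that were higher in TGFβR-CA and the small TGFβR-WT set were among these 5, and the ratio of the small over the large TGFβR-WT set had a median of 2.03 over the 5, with *Cox7c* at 0.752 and *Atp5g2* at 8.66. The median was 0.859 over the 19 members with less than that and 0.867 over the 50 with none, to which *Uqcrh* and *Uqcrq* belong. The levels of these 5 genes are uncertain where reads could be split or dropped between copies, and the part of shared ends in the result was not tested.

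**Figure D3:**
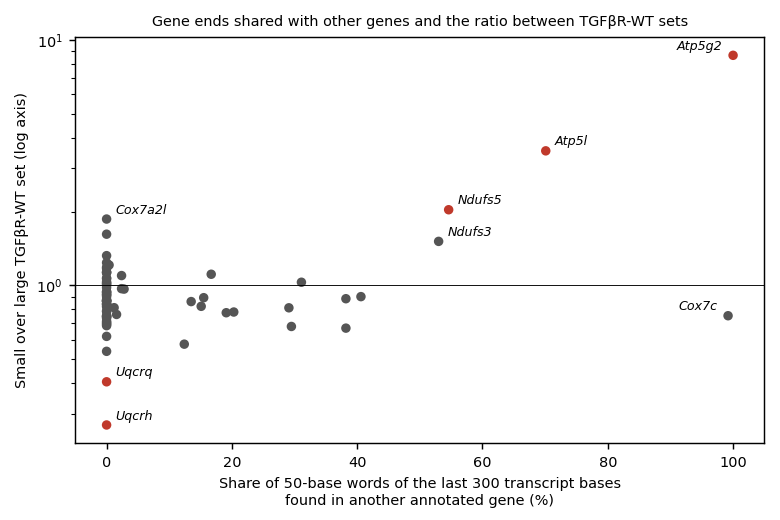
Ratio of the small over the large TGFβR-WT set (log y axis) against the share of 50-base words at the transcript end found in another annotated gene (x axis, percent), with 1 point per member and the 5 members that part the sets in red. *Atp5g2*, *Atp5l* and *Ndufs5* lie high on the right, *Cox7c* lies on the right below 1, and *Uqcrh* and *Uqcrq* lie low on the left.

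Respiratory chain mRNA varied across cell states and was highest in cycling cells. The authors' cluster names were used: GC-TFH and TR-TFH are germinal center and tissue-resident follicular helper cells and CTL are cytotoxic T lymphocytes. Because the clusters had been formed from the same transcriptomes, the differences are described with no test. In TGFβR-KO the summed level was 292 in cycling cells, 246 in GC-TFH, 237 in activated, 234 in migratory, 229 in CTL, 210 in tumorigenic, 204 in pre-tumorigenic and 199 in TR-TFH cells. The highest cluster was 1.47 times the lowest, and 1.23 times with cycling cells left out. With mitochondrial, ribosomal and RNA quality genes left out of the denominator it was 1.29 times the lowest. In the large TGFβR-WT set the range was then 1.53 in place of 1.67 times. Cytosolic ribosomal protein genes of TGFβR-KO summed to 2193 in cycling cells, the lowest, and 3367 in TR-TFH cells, the highest. Over single cells the SD of the members' summed level was 43.7 to 79.9 within the TGFβR-KO clusters, so neighbours in the order above overlapped widely.

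A similar order was seen in the other sets as far as they had 20 cells per cluster. In the large TGFβR-WT set the summed level was 337 in cycling, 245 in activated, 235 in GC-TFH, 222 in migratory, 214 in pre-tumorigenic and 201 in TR-TFH cells. In the small set it was 214 in activated, 209 in GC-TFH, 183 in TR-TFH and 180 in pre-tumorigenic cells. In TGFβR-CA it was 229 in GC-TFH, 218 in activated, 195 in TR-TFH, 191 in migratory and 179 in pre-tumorigenic cells. GC-TFH and activated cells were above TR-TFH and pre-tumorigenic cells in each of the 4 sets. B cell and plasma cell markers also peaked in GC-TFH cells of each set, with a summed level of 4.74 in TGFβR-KO (0.198 to 1.94 in its other clusters), 5.59 in TGFβR-CA, 6.69 in the large and 1.90 in the small TGFβR-WT set, and their part in the result was not tested. Migratory cells were above pre-tumorigenic cells in the 3 sets that had both, yet below TR-TFH cells in TGFβR-CA.

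**Figure D4:**
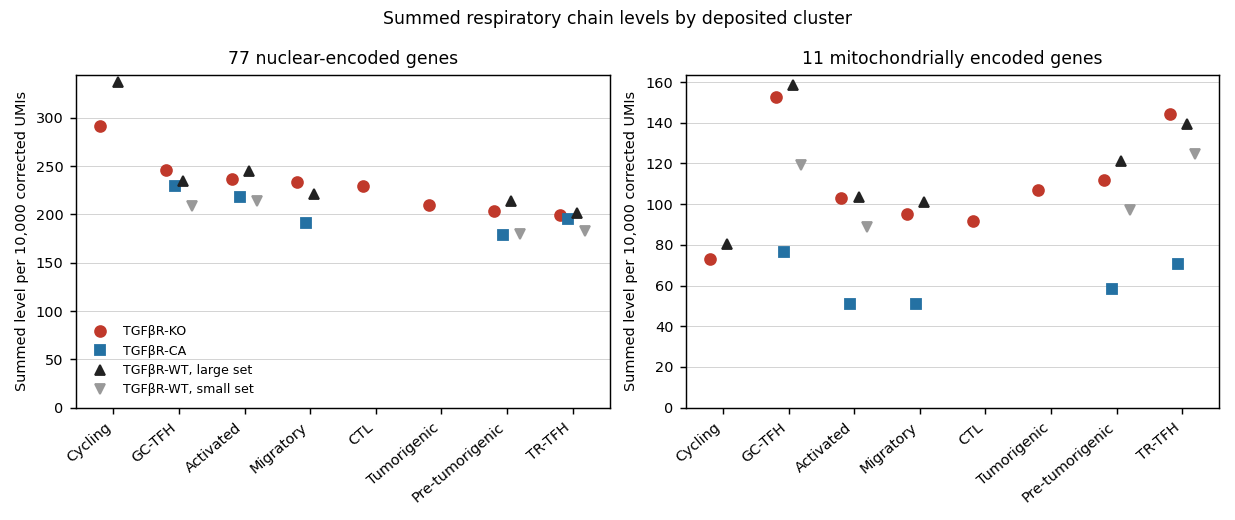
Summed level per 10000 corrected UMIs of the 77 nuclear-encoded genes (left) and of the 11 mitochondrially encoded genes measured (right) by cluster, with 1 point for each cell set with at least 20 cells in the cluster. Cycling cells are highest on the left (292 and 337) and lowest within their set on the right (73.1 and 80.2), and TGFβR-CA lies below the other sets on the right.

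Cycling cells, 77 in TGFβR-KO and 41 in the large TGFβR-WT set, had the highest levels in every complex. Against all other cells of their set, 26 of the 74 members were at least 1.5-fold higher in TGFβR-KO, where 23% of all genes were, and 2 were lower, where 22.2% of all genes were. In the large TGFβR-WT set 40 were higher, where 19.1% of all genes were, and 3 lower, where 38.4% were. The lists shared 22 members, or 84.6% of the TGFβR-KO list and 55% of the TGFβR-WT list. Over all genes past the fold in cycling cells, 50.7% of the TGFβR-KO list and 60.9% of the TGFβR-WT list were shared. The median log2 ratio of the members was 0.399 in TGFβR-KO and 0.607 in the large TGFβR-WT set, beside 0.014 and −0.206 for all genes.

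*Sdhd*, *Sdhb* and *Cox5a* had the largest of these ratios in TGFβR-KO. *Sdhd* stood at 1.61 in cycling and 0.709 in other TGFβR-KO cells, and at 1.66 and 0.675 in the large TGFβR-WT set. *Sdhb* stood at 2.42 and 1.12 in TGFβR-KO and at 2.13 and 1.08 in the TGFβR-WT set. *Cox5a* stood at 8.27 and 4.29 in TGFβR-KO and at 8.44 and 3.04 in TGFβR-WT. These 3 members, picked by their TGFβR-KO ratios, were about as high in cycling cells of both genotypes. The summed level of all members in cycling cells was lower in TGFβR-KO (292) than in the large TGFβR-WT set (337). The other succinate dehydrogenase subunits were not past the fold as higher. *Sdhc* was 1.41 times the other cells in TGFβR-KO and 1.43 times in the large TGFβR-WT set, and *Sdha* was 1.10 times in TGFβR-KO but 0.559 times in TGFβR-WT (0.864 in cycling and 1.55 in other cells). *Uqcrh*, by contrast, had its lowest TGFβR-KO level in cycling cells (4.89, against 7.95 in migratory cells) and its highest TGFβR-WT level there (5.85 in the large set).

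Of the 72 members with at least 1000 UMIs, 51 had their highest TGFβR-KO level in cycling cells, where 23% of all 2962 genes with that many UMIs did. Their lowest level was in TR-TFH cells for 26, in pre-tumorigenic for 20 and in tumorigenic cells for 15, beside 18.9%, 17% and 16.7% of all such genes. With cycling cells left out, 39 of the 72 were highest in GC-TFH cells, as were 30.1% of all such genes. Cycling cells were the smallest TGFβR-KO cluster, and 30.1% of all such genes also had their lowest level there, against 4 of the 72 members. The widest ranges over clusters belonged to *Cox5a* (8.27 in cycling and 2.62 in TR-TFH cells, 3.15 times), *Sdhd* (2.75 times), *Sdhb* (2.71 times), *Ndufc1* (2.67 times) and *Ndufb8* (2.45 times). *Ndufc1*, an accessory subunit of complex I, stood at 2.73 in cycling, 2.26 in activated, 2.25 in GC-TFH and 1.02 in pre-tumorigenic cells. The most abundant member, *Atp5e*, varied by only 1.24 times, from 11.7 to 14.5.

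A few members went against the common order. *Cox7a2l* was lowest in GC-TFH cells and highest in migratory cells of TGFβR-KO, at 1.82 and 3.31, and of TGFβR-CA, at 1.74 and 3.59. In the large TGFβR-WT set it stood at 1.84 in GC-TFH, 1.39 in cycling and 2.73 in migratory cells, and in the small set at 2.86 in GC-TFH and 4.60 in TR-TFH cells. In each of the 4 sets it was lower in GC-TFH than in TR-TFH cells, the reverse of the summed level. *Ndufa10* in TGFβR-KO was 1.65 in migratory, 1.64 in CTL and 1.0 in TR-TFH cells.

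**Figure D5:**
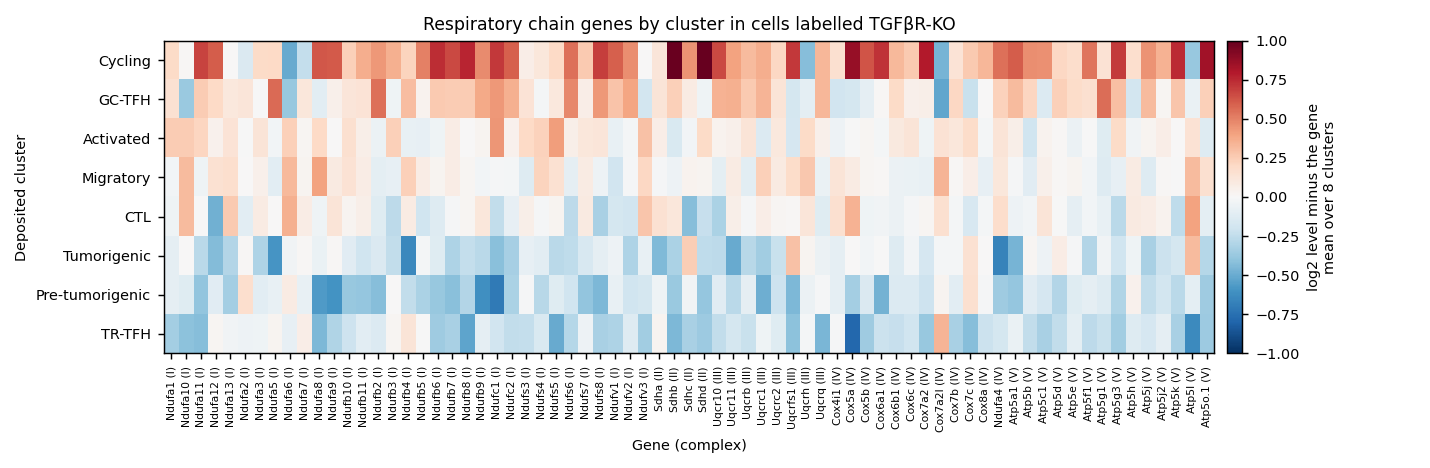
Levels of 71 members with at least 1000 corrected UMIs in the 8 clusters of TGFβR-KO cells, as log2 level minus the gene's mean over clusters (color scale cut at −1 and 1). The cycling row is red for most genes and the TR-TFH, pre-tumorigenic and tumorigenic rows are blue for most, with *Cox7a2l*, *Ndufa6* and *Uqcrh* among the exceptions.

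Within clusters, the ratios between conditions depended on the TGFβR-WT set. TGFβR-KO had 0.952 to 1.05 times the summed level of the large TGFβR-WT set in GC-TFH, TR-TFH, activated and pre-tumorigenic cells, and 1.09 to 1.18 times that of the small set. TGFβR-CA had 0.836 to 0.976 times the large and 0.996 to 1.10 times the small set. Against the large set alone, TGFβR-KO had 0.866 times the summed level in cycling and 1.05 times in migratory cells. TGFβR-CA had 0.860 times in migratory cells. Complex IV of TGFβR-KO, above both sets over all cells, was 0.989 to 1.03 times the large set in these clusters. Over the small set it was 1.20 to 1.33 times. Tumorigenic cells (361) and CTL (321), which had at most 10 cells in each other set, had no counterpart for a comparison. In TGFβR-KO, tumorigenic cells stood at 210 and pre-tumorigenic cells at 204, with SDs over cells of 46.1 and 43.7.

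The mitochondrially encoded subunits, measured as a companion to the members, followed a different pattern. The 11 genes measured summed to 112 in TGFβR-KO, 67.2 in TGFβR-CA, 129 in the large and 111 in the small TGFβR-WT set, so TGFβR-CA was at 0.521 and 0.603 times the TGFβR-WT levels. Per nuclear-encoded UMI there were 0.497 mitochondrially encoded UMIs in TGFβR-KO, 0.326 in TGFβR-CA, 0.574 in the large and 0.576 in the small set. Sum and ratio are partial, since most of these UMIs came from *mt-Nd1*, *mt-Nd2* and *mt-Nd4*, and *mt-Nd6* and *mt-Cytb* were not measured. *mt-Co2*, *mt-Co3* and *mt-Atp6* had only 138, 188 and 185 UMIs over all cells. Their ends are shared with other annotated genes (100%, 99.6% and 98.8%), and how far this lowered their counts was not tested. In GC-TFH, TR-TFH, activated and pre-tumorigenic cells, TGFβR-CA had 0.480 to 0.506 times the mitochondrially encoded level of the large and 0.565 to 0.645 times that of the small set. The lower level in TGFβR-CA was thus present in each of these clusters, while the nuclear-encoded genes of the same cells were at 0.836 to 1.10 times TGFβR-WT.

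The decrease in TGFβR-CA was not shared by all mitochondrially encoded genes. *mt-Nd1*, a membrane subunit of complex I, had a level of 35.9 in TGFβR-KO, 16.4 in TGFβR-CA, 38.8 in the large and 29.9 in the small TGFβR-WT set. *mt-Nd2* stood at 27.9, 14.5, 33.6 and 26.5 and *mt-Nd4* at 25.6, 13.2, 29.0 and 29.0. With *mt-Nd3*, 4 of the 6 genes with at least 200 UMIs were past the fold as lower in TGFβR-CA. *mt-Co1*, the catalytic subunit of complex IV, stood at 14.1, 14.1, 15.3 and 12.1, and *mt-Nd5* at 5.96, 7.16, 7.24 and 6.15, with no such difference. *mt-Nd3* (2.46, 1.55, 4.97 and 6.29) was past the fold in TGFβR-KO too. The ends of *mt-Co1* (100%) and *mt-Nd3* (98.8%) are shared with other annotated genes, and those of *mt-Nd1* and *mt-Nd4* (0) are not. Those of *mt-Nd2* (31.9%) and *mt-Nd5* (1.99%) are shared in part, and the part of shared ends in these differences was not tested.

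Other features of the TGFβR-CA cells moved with this result. *Gm42418* and *AY036118*, which overlap ribosomal RNA sequence, made up 5.69% of the corrected UMIs in TGFβR-CA against 0.552% in TGFβR-KO, 0.412% in the large and 0.447% in the small TGFβR-WT set. *Lars2* stood at 8.29 in TGFβR-CA against 1.18 in TGFβR-KO and 0.942 and 0.346 in the TGFβR-WT sets. Their part in the mitochondrial level was not tested.

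Across cell states the 2 genomes also diverged. In TGFβR-KO the mitochondrially encoded level was lowest in cycling cells (73.1) and highest in GC-TFH (153) and TR-TFH cells (144), so cycling cells were highest in nuclear-encoded and lowest in mitochondrially encoded mRNA. The same held in the large TGFβR-WT set, with 80.2 in cycling, 158 in GC-TFH and 139 in TR-TFH cells. *mt-Co1* was highest in tumorigenic cells of TGFβR-KO, at 26.6 against 18.1 in pre-tumorigenic and 10.9 in CTL, whereas *mt-Nd1* stood at 30.9, 34.1 and 30.2 in these cells. Over single cells the summed nuclear-encoded and mitochondrially encoded levels had Pearson correlations of −0.129 in TGFβR-KO, −0.135 in TGFβR-CA, −0.167 in the large and −0.222 in the small TGFβR-WT set, which is weak and shares the denominator of each cell. Complexes I and V were correlated over the same cells at 0.411 to 0.472.

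Genes that work with the chain were set beside it. No enzyme of the citric acid cycle (18 with at least 200 UMIs), no mitochondrial import gene (20), no regulator of respiratory gene transcription (12) and none of 10 respiratory genes outside the symbol rule was past the fold in TGFβR-KO or TGFβR-CA. Of 42 assembly factors, *Ndufaf5* was lower in TGFβR-CA, at 0.0776 against 0.148 and 0.132 in the TGFβR-WT sets, and none was past the fold in TGFβR-KO. Of 16 glycolysis genes, 3 were higher in TGFβR-KO. These were the glucose transporters *Slc2a3*, at 0.455 against 0.128 and 0.115 in the TGFβR-WT sets, and *Slc2a1*, at 0.189 against 0.116 and 0.0742, and the hexokinase *Hk2*, at 0.684 against 0.251 and 0.140. The summed level of the 21 glycolysis genes was 32.0 in TGFβR-KO, 33.4 in TGFβR-CA, 31.4 in the large and 41.1 in the small set.

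Over the 23 groups of cluster and set with at least 20 cells, the summed level of the members followed that of the citric acid cycle enzymes with a Pearson correlation of 0.934, and 0.793 over the 21 groups without cycling cells. For glycolysis the values were 0.634 and 0.343, and for the mitochondrially encoded subunits −0.053 and 0.268. These groups share libraries and denominators, and the values are descriptions.

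The promoters of the members were searched because the members moved together over cell states. Promoter sequences of RefSeq (GRCm38.p6), from 250 bases before to 50 after the start, were matched for 63 members and for 9789 genes of the table. The NRF1 word, which reads GCGCA, any base and then GCGC, on either strand, occurred in 25.4% of the members' promoters and in 11.6% of all. The ETS word CCGGAAG, to which GABP can bind, occurred in 25.4% and 20.4%, the YY1 word AAGATGGCG in 11.1% and 3.59%, and TATAAA in 7.94% and 9.07%. No word contains another, and a match is a description of sequence and not a binding site. *Nrf1* itself had levels of 0.187, 0.299, 0.192 and 0.313 in TGFβR-KO, TGFβR-CA, the large and the small TGFβR-WT set, *Gabpa* 0.246, 0.242, 0.243 and 0.198, and *Yy1* 2.03, 2.37, 2.01 and 2.86.

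Below are stretches of 100 bases upstream of the start of 4 members that overlap no annotated exon, as examples of the first 2 words in complexes I and V, with the word or its reverse complement in capitals. *Ndufb4* (NRF1 word) is from chr16:37654480-37654579, *Atp5h* (NRF1 word) from chr11:115419981-115420080, *Ndufb6* (ETS word) from chr4:40279572-40279671 and *Atp5e* (ETS word) from chr2:174464124-174464223, all on the minus strand of GRCm38.p6.
Ndufb4: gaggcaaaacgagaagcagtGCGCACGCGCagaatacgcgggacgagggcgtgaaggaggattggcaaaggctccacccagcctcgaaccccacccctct
Atp5h: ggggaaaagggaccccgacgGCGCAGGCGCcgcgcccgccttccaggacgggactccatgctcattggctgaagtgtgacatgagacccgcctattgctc
Ndufb6: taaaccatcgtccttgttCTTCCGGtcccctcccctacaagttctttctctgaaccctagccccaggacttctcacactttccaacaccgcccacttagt
Atp5e: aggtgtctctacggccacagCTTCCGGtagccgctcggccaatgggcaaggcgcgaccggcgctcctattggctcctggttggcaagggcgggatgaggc

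*Ndufb4*, whose product is an accessory subunit of complex I, had levels of 0.554 in TGFβR-KO, 0.801 in TGFβR-CA, 0.551 in the large and 0.890 in the small TGFβR-WT set. *Ndufb6* stood at 1.04, 1.09, 1.23 and 0.923. *Atp5h*, with the NRF1 word, and *Atp5e*, with the ETS word, were the 2 highest members of complex V. Examples were taken in descending order of UMIs, so their high level follows from the choice.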

How the data were processed

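Per the study's methods and the labels, the authors aligned and counted 10x 3′ libraries with Cell Ranger 3.1.0 (mm10), removed cells outside 1000 to 5000 detected genes or with 10% or more mitochondrial UMIs, normalized them with SCTransform in Seurat, integrated them on 3000 features and named 8 clusters. They also removed γδ T cells and contaminating epithelial cells, identified by marker genes. Each deposited value is a natural log, taken of the corrected UMI number plus 1. The log was undone (largest distance from a whole number 3.64e-12), and levels per 10000 were computed in Python 3.11.15 with numpy 2.4.6 and pandas 2.3.3. SCTransform sets cells to a common depth, so the original depth and its counting error are not kept in the values, and no count model, SE or p-value is given. On simulated counts, the 1.5-fold rule found 191 of 200 genes changed 2-fold in TGFβR-KO and called 8 unchanged genes. The simulation held counting noise only and no difference between libraries or cells. It therefore cannot show how the rule performs on the real sets. Cells were taken as deposited and no doublet caller was run. Named genes were the 3 highest members of each complex, the 5 highest and 5 lowest ratios by the nearer TGFβR-WT set, the 5 widest ranges over clusters, isoform families, the *Sdh* genes and listed genes past the fold. *Cox7a2l*, *Uqcrq*, *Ndufb4* and *Ndufb6* were also described after their values were seen. Members, lists and rules were chosen with earlier results of these data known. Alternatives concerned the mean over cells, the denominator, cells left out, cluster weights, filters, fold, pseudocount and TGFβR-WT set. Results for 1 member are not reported here on its own, though it is counted in the sums.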

Additional observations from a re-analysis of the deposited data

How the results depend on the processing

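Of 284 recomputed values over 40 results and 15 settings, 246 differed from the reported value by no more than 1 SD between the 2 TGFβR-WT sets (for counts, 1.5-fold). For the ranges over clusters this SD (0.342) is wide, because only the large set had at least 20 cycling cells. It was also wide for complexes III (0.308) and IV (0.211) of TGFβR-KO, so sizeable shifts count as within it. Some agreement was fixed in advance, since a changed denominator cancels in the mitochondrial to nuclear ratio. No paired analysis was possible because the TGFβR-WT cells carry no replicate number and the other conditions had 1 pool each. Without the small TGFβR-WT set, 3 members were past the fold as higher and 4 as lower in TGFβR-CA; without the large set, 6 and 5 were so in TGFβR-KO and 2 and 4 in TGFβR-CA. With a fold of 5 to 4 in place of 1.5, 4 were higher and 3 lower in TGFβR-KO and 3 lower in TGFβR-CA, where 5.55%, 16.7% and 10.9% of all genes were. The count lower in TGFβR-KO was 2 with equal cluster weights and 2 with no filter. Shares over all genes are not given for these settings, so these counts cannot be read as a result about the members. With no filter, *Cox7a1* (64 UMIs in all cells) was past the fold as lower and *Cox6b2* (6 UMIs) as higher in TGFβR-KO. With mitochondrial, ribosomal and RNA quality genes left out of the denominator, the summed level of TGFβR-CA was 1.19 times the small set and the median log2 ratio 0.180; over the large set TGFβR-CA complex II was 0.893 and complex V 1.03, which turned from below to above 1. Over the small set complexes I, II and V then stood at 1.14, 0.952 and 1.15 in TGFβR-KO and at 1.14, 0.875 and 1.15 in TGFβR-CA. With equal cluster weights complex II of TGFβR-KO was 0.846 over the small set. Without *Uqcrh* and *Uqcrq*, an alternative chosen after seeing the data, complex III of TGFβR-KO was 1.0 over the small set. With at least 50 cells per cluster, which drops cycling cells, the highest cluster of the large set was 1.21 times the lowest. The mitochondrial to nuclear ratio had an SD of only 0.0018 between TGFβR-WT sets. As a mean over cells it was 0.509 in TGFβR-KO, 0.332 in TGFβR-CA, 0.589 in the large and 0.597 in the small set, and with equal cluster weights 0.578, 0.312, 0.583 and 0.548, so the gap between TGFβR-KO and TGFβR-WT closed and that of TGFβR-CA did not. Without shared barcodes it was 0.499 in TGFβR-KO and 0.586 in the large set; without cells above 5% mitochondrial UMIs 0.571 in the large set; without the 5% of cells with the most genes 0.502 in TGFβR-KO, 0.582 in the large and 0.592 in the small set. Causes were not tested.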
